A study of Mus musculus with 20 samples.

Results

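Whole wild-type mouse embryos were set against embryoid bodies (EBs) of unedited control lines, using 8 of the 20 RNA-seq libraries of the series. The members were the 6 *Zmym2*+/+ single embryos at embryonic day 8.5 (E8.5) and the day 3 EBs of the 2 non-target lines NT1 and NT2, taken by their labels and joined gene by gene on the Ensembl identifier. The embryos were of strain C57BL/6, with 3 males (embryos 1 to 3) and 3 females (embryos 4 to 6). The lines were single clones of V6.5, a mouse embryonic stem cell (mESC) line whose strain is labelled C57BL/6x129/SvJae, nucleofected with a guide that has no target, so *Zmym2* was intact in all 8 libraries. In the sample names embryos 1 and 4 share a number that no other embryo has, and what it marks is not stated. All 6 were treated as separate samples, and the p-values measure only the spread between these libraries. Tissue, strain, culture, batch and gene annotation all changed with the group, so none of them can be told apart from it. Only differences of at least 8-fold were therefore called.

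E8.5 lies just after gastrulation, when the streak has laid down mesoderm and endoderm, the heart tube forms and begins to beat, somites bud from the presomitic mesoderm, the neural plate closes and the yolk sac makes the first red cells. EBs are aggregates of mESCs that leave the naive state once LIF is withdrawn, pass through a formative state like the epiblast around implantation, and only later form germ layers. Formative cells express *Fgf5*, *Pou3f1* and high levels of the de novo DNA methyltransferases, and still express the pluripotency factor *Pou5f1*.

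The embryo libraries held 38142819 to 63938670 counts and the EBs 33183937 and 36867884, so that 1 CPM (a count scaled to library depth) stood for at least 33.2 counts. The deposited count tables listed 22729 genes for embryos and 20142 for EBs, of which 18288 were in both and 18210 had at least 10 counts over the 8 libraries. Genes of both tables took 98.9% to 99.6% of each library. Another symbol was given to 901 of the shared identifiers, and 10008 gene models stood in only 1 of the RPKM (reads per kilobase of transcript, scaled to depth) tables, so the gene annotations behind the tables differed.

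Several embryos stood apart from each other in markers of extraembryonic, maternal and blood cells. Summed over 16 trophoblast genes, the level was 469, 960, 144.5, 275, 81.2 and 58.5 CPM in embryos 1 to 6, against 11.6 and 9.55 CPM in the EBs over the 7 of these genes that their table holds. The 8 genes of the maternal decidua summed to 286, 507, 242.5, 482, 201 and 54.3 CPM, against 9.73 and 11.9 CPM over 5 genes. Embryo 2 was highest in both sums and embryo 6 lowest. For erythroid and globin genes the order was another: the 24 genes summed to 8108 CPM in embryo 6 and to 118 CPM in embryo 5, against 60.6 and 61.4 CPM over 15 genes in the EBs. *Prl3d1*, a hormone of trophoblast giant cells, ran from 0.66 to 295 CPM among embryos, and *Prl8a2*, made by decidua, from 2.30 to 200 CPM. Other markers were mixed. For trophoblast, *Elf5* reached 20.2 and *Tpbpa* 5.15 CPM, but *Prl3b1* was at most 0.141 CPM. The embryo medians of *Gcm1* (0.194 CPM) and *Syna* (0.0497 CPM) lay under both EBs (0.301 and 0.271, and 0.0904 and 0.298 CPM). For decidua, *Cyp11a1* reached 295 CPM, but *Pgr*, at 1.91 to 11.6 CPM, overlapped the EBs at 3.98 and 4.99 CPM. With embryos 3, 5 and 6 alone, the 3 with the least trophoblast RNA and chosen after the values were seen, 882 genes were called at least 8-fold higher in embryos and 835 in EBs, against 968 and 796 with all embryos, and 810 and 689 of these were shared. The part of these cells in the differences below was not tested further. In whole embryos and EBs, fewer cells of a type and less RNA per cell cannot be told apart.

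**Figure D1:**
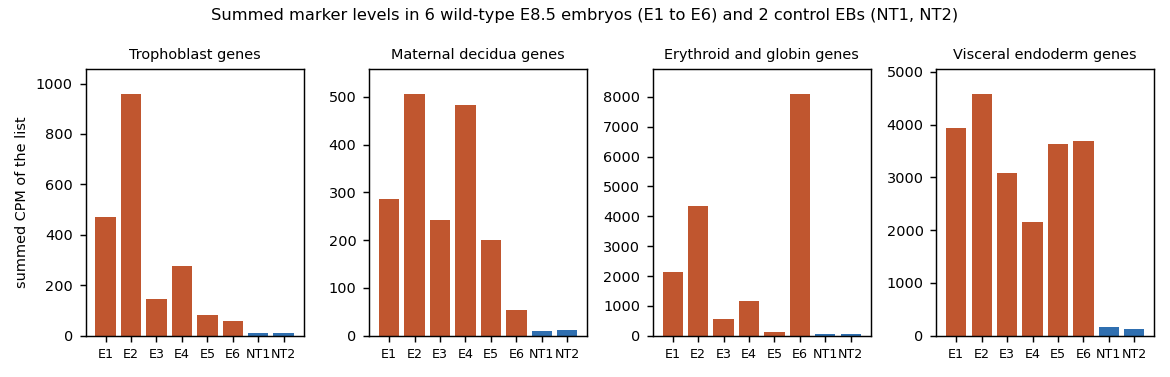
Summed level in CPM (y axis, linear from 0) of 4 marker lists in embryos E1 to E6 (orange) and the EBs of NT1 and NT2 (blue), 1 bar per library with no error bars. Trophoblast genes peak in embryo 2 at 960 CPM and erythroid genes in embryo 6 at 8108 CPM, while visceral endoderm genes lie between 2157 and 4589 CPM in every embryo.

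Of the 18210 genes tested, 968 (5.32%) were at least 8-fold higher in embryos and 796 (4.37%) at least 8-fold higher in EBs at an adjusted p under 0.05 (edgeR's quasi-likelihood test, Benjamini-Hochberg). Without the fold limit, 4328 genes (23.8%) were higher in embryos and 4096 (22.5%) in EBs. The groups did not overlap for 5119 genes (28.1%) with embryos above and 5348 (29.4%) with EBs above, and the median log2 difference was 0.04. Below, levels are CPM scaled by TMM, differences are log2 values of embryos over EBs with their standard error (SE), adjusted p comes from that test, and called means past both limits. Counts of calls in a list stand beside backgrounds of 5.32% in embryos and 4.37% in EBs, and were not tested against them. Replicates correlated across genes at 0.944 to 0.983 within embryos and 0.987 between EBs, and embryos with EBs at 0.846 to 0.875.

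Imprinted growth genes, globins and genes of vessels and yolk sac led the embryo side. *H19*, an imprinted RNA of the fetus and placenta, ran from 2571 to 7261 CPM (median 4006) in embryos and was at 0.617 and 0.607 CPM in EBs, a log2 difference of 12.79 (SE 0.66, adjusted p = 2.07e-06). Its neighbour *Igf2*, the fetal growth factor, was at 1234 to 1837 CPM against 0.999 and 0.844 CPM, a difference of 10.74 (SE 0.35, adjusted p = 2.86e-07). Both genes were high in all embryos and at most 0.999 CPM in the EBs. *Igf2* overlaps a gene model that only 1 of the RPKM tables holds, so its levels are less certain. *Nr2f2*, a nuclear receptor of mesenchyme and veins, had 9673 counts over the embryos, with 22.1 to 55.7 CPM, and none in the EBs, so it was at least 860-fold higher. *Peg13*, an imprinted RNA, also had no count in EBs and was at least 507-fold higher, and *Ly6c1*, a surface protein of vessels, at least 211-fold. Smooth muscle actin, *Acta2*, was at 155 to 341 CPM against 0.206 and 0.0791 CPM (difference 10.62, SE 0.60, adjusted p = 3.07e-06). The others of the 10 were the globins *Hbb-bh1* and *Hba-a1*, *Afp* and *Xist*, which are described with their lists.

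Epiblast genes stood among the leaders on the EB side. *Gdf3*, a TGF-beta family ligand of pluripotent cells, was at 53.3 and 54.5 CPM in EBs and at most 0.345 CPM in embryos, a difference of -8.54 (SE 0.45, adjusted p = 2.13e-06). *Gdf3*, like *Platr10* below, is among the genes that the study lists as raised in *Zmym2*-/- embryos. The study chose those against wild-type embryos that include the ones used here, so their direction is not independent evidence. *Fgf5*, the growth factor that marks formative epiblast, was at 156 and 163 CPM against 0.126 to 1.53 CPM (difference -7.86, SE 0.63, adjusted p = 1.85e-05). *Dppa5a*, an RNA-binding protein of stem cells, was at 334 and 400 CPM against 0.429 to 4.86 CPM (difference -7.40, SE 0.71, adjusted p = 4.44e-05). Also among the 10 were *Nphs1* and *Kirrel2*, adhesion proteins best known from the kidney slit diaphragm, at 14 and 18.7 CPM and at 13.8 and 18.5 CPM in EBs and under 0.2 CPM in every embryo, and *Cdh9*, a cadherin. Their noncoding members were *Platr10*, an RNA of pluripotent cells, and the pseudogenes *Rpl15-ps2* and *Gm8210*. *CT010467.1*, a ribosomal RNA model at 2623 and 3060 CPM in EBs, overlaps a gene model that only 1 of the RPKM tables holds, as do *Nphs1*, *Cdh9* and, on the embryo side, *Igf2*.

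**Figure D2:**
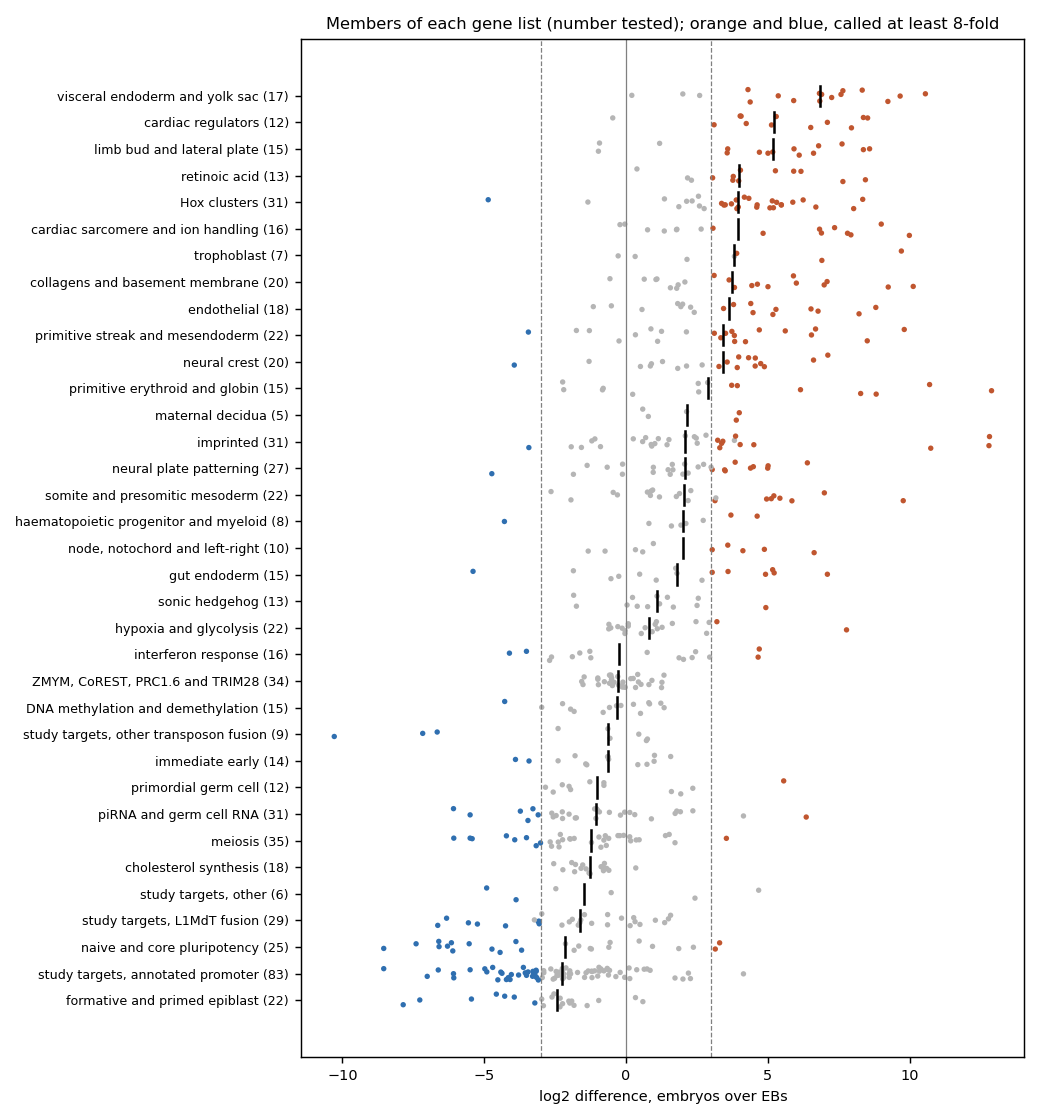
Each point is a gene of a list (y axis, number tested in parentheses) at its log2 difference, embryos over EBs (x axis). Orange points were called higher in embryos and blue ones higher in EBs, black bars are list medians, and the dashed lines mark 8-fold. Medians run from 6.83 for visceral endoderm to -2.44 for formative epiblast.

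The *Hox* genes encode the factors that give the body axis its positions, and their 4 clusters open in sequence from the anterior to the posterior members. Of 31 *Hox* genes tested, 22 were called higher in embryos and 1 in EBs, with a median log2 difference of 3.96 against 0.04 over all genes. By cluster the called genes were 8 of 8 for *Hoxa*, 6 of 9 for *Hoxb*, 3 of 7 for *Hoxc* and 5 of 7 for *Hoxd*. Along the clusters the median was 3.96 for paralogues 1 to 4 (10 of 11 called), 5.07 for 5 to 9 (10 of 13) and 1.86 for 10 to 13 (2 of 7). *Hoxa9* was at 10.3 to 35.4 CPM in embryos and at 0.117 and 0 CPM in EBs, a difference of 8.34 (SE 0.92, adjusted p = 0.000102). *Hoxd9* had 3 counts in EBs, a ratio of 286 with a 95% counting interval of 97.7 to 1386. *Hoxb9* reached 86.1 CPM in an embryo against 1.62 and 0.765 CPM in EBs (difference 5.47, SE 0.85, adjusted p = 0.000687). For *Hoxc13* and *Hoxd13*, at the posterior end of their clusters, both EBs lay above every embryo. *Hoxc13* was at 1.41 and 0.95 CPM in EBs and at most 0.126 CPM in embryos (difference -4.86, SE 0.67, adjusted p = 0.000351), and *Hoxd13* at 5.46 and 3.67 CPM against 0.851 to 2.62 CPM (difference -1.35, SE 0.40, adjusted p = 0.0208), which passed the test but not the 8-fold limit. The other 8 of the 39 *Hox* genes could not be tested, with 5 in the embryo count table alone, 2 in the EB table alone and 1 in neither. Among the 5 were posterior genes too: *Hoxa11* was at 1.35 to 27.2 CPM of the library total in embryos, or 7.73 RPKM, and listed at 0 RPKM in EBs, and *Hoxa13* at 0.250 to 5.13 CPM, or 0.867 RPKM against 0.006 RPKM. The 2 in the EB table alone were also posterior, and low. *Hoxb13* was at 0.753 and 0.488 CPM in EBs, or 0.281 RPKM against 0.0075 RPKM in embryos. *Hoxd12* was at 0.0301 and 0.108 CPM in EBs, or 0.0275 RPKM, and listed at 0 RPKM in embryos.

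**Figure D3:**
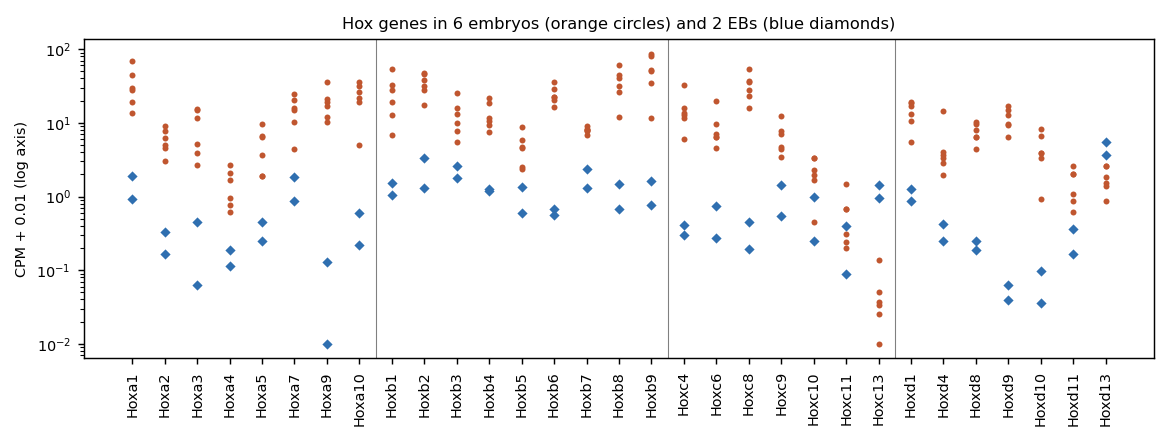
Level of each tested Hox gene in CPM plus 0.01 (y axis, log scale), by cluster from A to D along the x axis. Orange circles are the 6 embryos and blue diamonds the 2 EBs. Embryos lie above EBs for most genes, and Hoxc13 and Hoxd13 have the EBs on top.

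Heart genes were among those called higher in embryos. Of 12 cardiac regulators, 11 were called higher in embryos and the median log2 difference was 5.21. *Hand2*, a factor of the heart fields and lateral plate, was at 35.6 to 83.0 CPM against 0.147 and 0.211 CPM (difference 8.37, SE 0.49, adjusted p = 3.57e-06). Its relative *Hand1* was at 54.1 to 939 CPM against 0.822 and 1.13 CPM (difference 8.52, SE 1.41, adjusted p = 0.000977), with the highest value in embryo 2, which also had the most trophoblast RNA. *Gata4*, *Tbx20* and *Isl1*, factors of the heart fields, differed by 5.13, 5.29 and 4.24. *Srf*, a factor in use in all cells, was the one regulator not called. Among 16 genes of the sarcomere and of calcium handling 9 were called, with a median of 3.95. *Tnni1*, the slow troponin I of the embryonic heart, was at 36.7 to 121 CPM against 0.117 and 0.0264 CPM (difference 9.99, SE 0.73, adjusted p = 1.19e-05). *Actc1*, cardiac actin, was at 88.9 to 359 CPM against 0.558 and 0.211 CPM (difference 9.0, SE 0.79, adjusted p = 2.79e-05), and *Myl7*, the atrial light chain, differed by 6.82. *Myh6*, the alpha myosin heavy chain, was at 4.83 to 92.4 CPM in embryos and at 11.4 and 10.5 CPM in EBs, so the groups overlapped (difference 1.79, SE 0.95, adjusted p = 0.149).

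Genes of vessels and of primitive blood were mostly higher in embryos. Of 18 endothelial genes 10 were called higher in embryos (median 3.61). *Cdh5*, the cadherin of endothelial junctions, was at 26.6 to 160 CPM against 0.235 and 0.106 CPM (difference 8.80, SE 1.11, adjusted p = 0.000213). It was highest in embryo 2 and lowest in embryo 6, as the trophoblast sum was. *Kdr*, the VEGF receptor, was at 23.7 to 135 CPM against 0.117 and 0.317 CPM (difference 8.21, SE 0.88, adjusted p = 8.54e-05). *Eng*, a TGF-beta co-receptor, went the other way, with 32.3 and 31.9 CPM in EBs against 7.47 to 24.8 CPM (difference -1.15, SE 0.35, adjusted p = 0.023). Of 15 erythroid genes 7 were called higher in embryos (median 2.88). *Hbb-bh1*, the beta-type globin of primitive red cells, was at 11.6 CPM in embryo 5 and 4799 CPM in embryo 6 (median 658) against 0.323 and 0.0791 CPM (difference 12.88, SE 2.87, adjusted p = 0.00507). Even the embryo with the least globin lay above both EBs. *Hba-a1*, an alpha globin, was at 11.6 to 185 CPM against 0.0881 and 0.0528 CPM (difference 10.70, SE 1.46, adjusted p = 0.000337). Of 8 genes of blood progenitors and myeloid cells, *Gata2* and *Fcer1g* were called in embryos and *Myb* in EBs. *Myb*, a factor of definitive progenitors, was at 36.2 and 34.5 CPM in EBs against 1.64 to 2.15 CPM (difference -4.29, SE 0.19, adjusted p = 1.53e-06). The calls here leaned on both EBs: 7 erythroid calls became 4 without the EB of NT1 and 3 without that of NT2, and *Hbb-bh1* had an adjusted p of 0.057 without NT2. *Gata2* was lost without either EB (adjusted p = 0.12 without NT1 and 0.14 without NT2), and *Fcer1g* without NT1 (adjusted p = 0.051). With embryos 3, 5 and 6 alone both were under 8-fold (difference 2.48 for *Gata2* and 2.85 for *Fcer1g*). *Gata2* was highest in embryo 2 at 205 CPM and lowest in embryo 6 at 5.77 CPM, as the trophoblast sum was.

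Genes of the lateral plate and the paraxial mesoderm were also among the calls. Of 15 genes of limb bud and lateral plate, 12 were called higher in embryos (median 5.17), among them *Pitx1*, the hindlimb factor, at 19.4 to 61.3 CPM against 0.147 and 0.0528 CPM (difference 8.58, SE 0.77, adjusted p = 3.29e-05). *Foxf1*, a factor of splanchnic mesoderm, was at 29.4 to 66.2 CPM against 0.294 and 0.185 CPM (difference 7.61, SE 0.48, adjusted p = 5.29e-06), and *Pdgfra*, the PDGF receptor of mesenchyme, differed by 6.79. Of 22 somite and presomitic genes 8 were called (median 2.04). *Meox1*, a factor of the somite, had 3 counts in EBs and 9.78 to 65.4 CPM in embryos, a ratio of 1003 with a 95% counting interval of 343 to 4865. *Pax3* was at 4.50 to 22.8 CPM against 0.705 and 0.106 CPM (difference 5.12, SE 0.83, adjusted p = 0.000905). *Tcf15*, a factor of the forming somite that mESCs also use, was at 58.9 and 74.3 CPM in EBs against 4.14 to 16.3 CPM in embryos (difference -2.65, SE 0.39, adjusted p = 0.000541). Without the EB of NT2 the 8 somite calls became 4.

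Neural crest genes were called higher in embryos for 11 of 20 (median 3.42). *Snai2*, which drives crest cells out of the epithelium, was at 12.7 to 23.3 CPM against 0.117 and 0.106 CPM (difference 7.11, SE 0.46, adjusted p = 5.75e-06), and *Sox9* and *Msx1* differed by 4.88 and 4.32. The crest factor *Foxd3*, also a formative gene, was the member called in EBs, at 102 and 114 CPM against 1.92 to 11.2 CPM (difference -3.94, SE 0.43, adjusted p = 9.75e-05). Of 27 genes of neural plate patterning, 9 were called in embryos and 1 in EBs (median 2.07). *Hesx1*, a factor of the anterior forebrain, was at 3.01 to 10.4 CPM against 0.0587 and 0.0791 CPM (difference 6.39, SE 0.75, adjusted p = 0.000142), and *Irx3* at 47.5 to 71.2 CPM against 5.02 and 2.80 CPM (difference 3.85, SE 0.30, adjusted p = 1.7e-05). *Pax6*, the eye and spinal cord factor, differed by only 1.63 (SE 0.38, adjusted p = 0.0065). *Olig2*, a factor of motor neuron progenitors, was the EB call, at 15.2 and 16 CPM against 0.0758 to 1.97 CPM (difference -4.73, SE 0.80, adjusted p = 0.00108). *Nes*, the intermediate filament of neural progenitors, was also higher in EBs, at 117 and 104 CPM against 16.7 to 55.1 CPM (difference -1.86, SE 0.38, adjusted p = 0.00344). Without the EB of NT2 the 9 embryo calls became 5.

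Of 22 genes of the primitive streak, 13 were called higher in embryos and 1 in EBs (median 3.42), and the 13 became 8 without the EB of NT2. The caudal factors *Cdx4* and *Cdx2*, which keep the axis growing, were at 31.3 to 126 CPM against 0.0881 and 0.0791 CPM (difference 9.81, SE 0.76, adjusted p = 1.56e-05) and at 47.5 to 127 CPM against 1.15 and 0.739 CPM (difference 6.54, SE 0.51, adjusted p = 1.54e-05). *Wnt3a*, the tail bud ligand, differed by 5.61 (SE 0.82, adjusted p = 0.000478). *T* (Brachyury), a marker of the streak and of differentiating EBs, was at 13 to 61.9 CPM in embryos and at 3.88 and 1.85 CPM in EBs (difference 3.82, SE 0.68, adjusted p = 0.00147). *Eomes*, which acts at the start of gastrulation, was the EB call, at 37.8 and 22.8 CPM against 0.55 to 6.23 CPM (difference -3.44, SE 0.59, adjusted p = 0.00115). It was named after its values were seen, and it overlaps a gene model of only 1 table. Of 10 genes of node and left-right axis 5 were called in embryos (median 2.00), with *Nog*, a BMP antagonist, at 10.2 to 77.0 CPM against 0.441 and 0.158 CPM (difference 6.63, SE 1.26, adjusted p = 0.00216). Of 13 hedgehog genes, *Ihh*, a ligand of the yolk sac and gut endoderm, was called in embryos (difference 4.93, SE 0.42, adjusted p = 2.48e-05) and no other (background 5.32%).

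**Figure D4:**
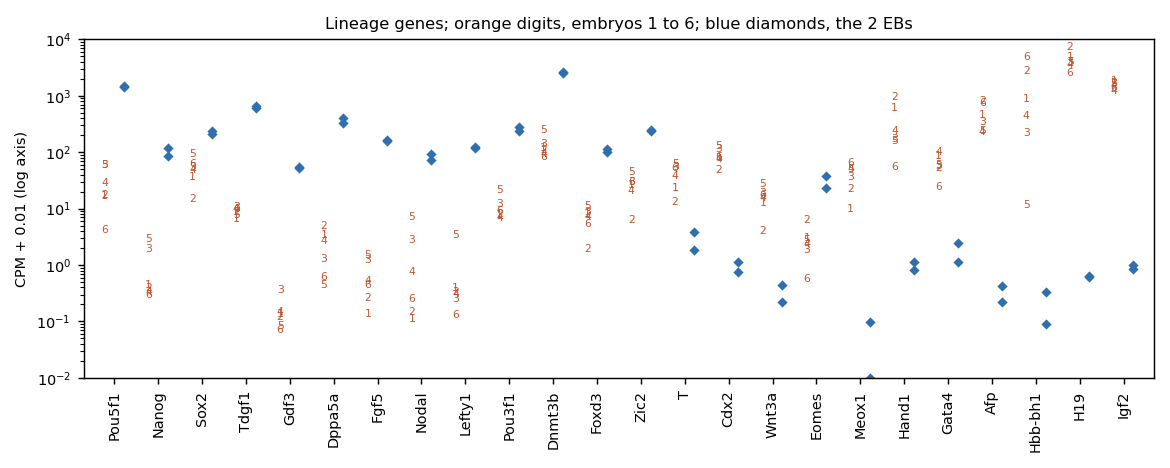
Levels of 24 lineage genes in CPM plus 0.01 (y axis, log scale), with each embryo drawn as its number in orange and the EBs as blue diamonds. Embryos lie below both EBs for every gene from Pou5f1 to Zic2, and above them from T to Igf2 apart from Eomes.

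Extraembryonic endoderm was high in every embryo. Of 17 genes of visceral endoderm and yolk sac, 14 were called higher in embryos, with the largest median of any list but the sex check, at 6.83. *Afp*, the fetal serum protein, was at 227 to 797 CPM against 0.411 and 0.211 CPM (difference 10.55, SE 0.91, adjusted p = 2.67e-05). *Apoa1* and *Apob*, the lipoproteins that the yolk sac exports, were at 347 to 862 CPM against 0.999 and 0.317 CPM (difference 9.66, SE 0.68, adjusted p = 9.28e-06) and at 172 to 806 CPM against 4.73 and 0.976 CPM (difference 7.25, SE 0.96, adjusted p = 0.000294). Summed, the list was at 167 and 123 CPM in the EBs of NT1 and NT2, and lower in NT2 for each of *Ttr* (2.7 and 0.396 CPM), *Apob* and *Hnf4a* (0.822 and 0.0528 CPM). Of 15 genes of gut endoderm 6 were called in embryos (median 1.80), with *Sox17* at 8.14 to 54.0 CPM against 0.969 and 0.580 CPM (difference 5.22, SE 0.75, adjusted p = 0.000439) and *Cxcr4* at a difference of 5.17. *Trh*, a releasing hormone that is on in early hindgut, was the EB call, at 830 and 670 CPM against 7.86 to 28.1 CPM (difference -5.39, SE 0.37, adjusted p = 8.11e-06). Trophoblast and decidua lists gave 3 of 7 calls (*Plac1*, *Gata3* and *Krt7*) and 2 of 5 (*Hsd11b2* and *Dcn*). *Krt7* was lost without either EB (adjusted p = 0.084 without NT1 and 0.11 without NT2), was under 8-fold with embryos 3, 5 and 6 alone (difference 2.20), and overlaps a gene model of only 1 table.

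Retinoic acid patterns the hindbrain and trunk. Of 13 retinoic acid genes 10 were called higher in embryos (median 3.97). *Aldh1a2*, the enzyme that makes retinoic acid in the trunk, was at 13.3 to 133 CPM against 0.764 and 0.818 CPM (difference 6.17, SE 0.96, adjusted p = 0.000715). The enzymes that degrade it followed: *Cyp26a1* was at 26.9 to 77.1 CPM against 1.23 and 0.264 CPM (difference 5.91, SE 0.70, adjusted p = 0.000149), and *Cyp26c1*, with 2 counts in EBs, had a ratio of 389 with an interval of 108 to 3212. *Rarb*, a receptor that retinoic acid induces, differed by 5.27. Of 20 collagens and basement membrane genes 12 were called (median 3.73), which became 7 without either EB. *Hapln1*, a link protein of hyaluronan matrix, was at 126 to 267 CPM against 0.117 and 0.211 CPM (difference 10.12, SE 0.53, adjusted p = 2.07e-06), and *Col1a1* and *Col3a1*, of fibrillar collagen, differed by 5.00 and 7.09. *Lama1*, a laminin chain of Reichert's membrane and early basement membranes, was at 1203 and 692 CPM in embryos 1 and 4 and at 32.6 to 209 CPM in the others. *Lamb1* and *Lamc1*, the chains it pairs with, also had their highest levels in the same embryos, which are those that share a number in their names: *Lamb1* was at 1043 and 726 CPM against 118 to 241 CPM in the other embryos, and *Lamc1* at 1487 and 1018 CPM against 141 to 305 CPM. Neither passed the test (adjusted p = 0.149 and 0.148). Of 22 genes of hypoxia and glycolysis, *Adm* and *P4ha1* were called in embryos (background 5.32%, median 0.80). *Slc2a3*, a glucose transporter, was at 1562 to 2787 CPM against 301 and 245 CPM, just under the limit (difference 2.93, SE 0.31, adjusted p = 8.21e-05). Without an EB, *Lama1* and *Adm* lost their calls (adjusted p = 0.11 and 0.12 without NT1, and 0.13 and 0.13 without NT2), and *P4ha1* was under 8-fold without embryo 4 (difference 2.97) and with embryos 3, 5 and 6 alone (difference 2.66). *Adm* was highest in embryo 2 at 569 CPM and lowest in embryo 6 at 2.61 CPM, as the trophoblast sum was.

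Imprinted genes, which are read from the allele of 1 parent, were called higher in embryos for 10 of 31 (background 5.32%) and in EBs for 1 (background 4.37%), with a median of 2.09. Beyond *H19*, *Igf2* and *Peg13* these included *Peg10*, at 528 to 1411 CPM against 34.1 and 46.8 CPM (difference 4.50, SE 0.51, adjusted p = 0.00011), and *Mest*, at 748 to 1931 CPM against 102 and 99.4 CPM (difference 3.86, SE 0.38, adjusted p = 5.31e-05). *Magel2* was the EB call, at 63.6 and 76.4 CPM against 3.18 to 10 CPM (difference -3.43, SE 0.37, adjusted p = 9.2e-05), and was just under 8-fold with embryos 3, 5 and 6 alone (difference -2.97). *Gnas* differed by 0.26 (SE 0.20, adjusted p = 0.313). *Xist*, the RNA of the inactive X chromosome, was at 80.1, 66.5 and 301 CPM in the female embryos and at 5.68, 0.824 and 0.568 CPM in the males, which went with their labels, and had 2 counts in the EBs. Its call rested on the females and was lost without either EB (adjusted p = 0.14 without NT1 and 0.16 without NT2).

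The pluripotency network was on in EBs and low in embryos. Of 25 naive and core genes, 12 were called higher in EBs and 2 in embryos, with a median log2 difference of -2.14. *Pou5f1*, the core factor (Oct4), was at 1465 and 1418 CPM in EBs and at 4.21 to 60.4 CPM (median 23.1) in embryos, a difference of -5.53 (SE 0.71, adjusted p = 0.00023). *Nanog* was at 119 and 85.1 CPM against 0.290 to 2.91 CPM (difference -6.60, SE 0.78, adjusted p = 0.000144), and *Tdgf1*, the Nodal co-receptor, at 617 and 657 CPM against 6.42 to 10.9 CPM (difference -6.16, SE 0.20, adjusted p = 2.86e-07). *Dppa2* and *Dppa4*, partners that bind chromatin in early embryos, differed by -6.59 and -6.11. The network was not lower throughout. *Sox2*, which neural tissue keeps, differed by -2.14 (SE 0.45, adjusted p = 0.00383), *Sall4* overlapped between the groups (difference -0.56, adjusted p = 0.268), and *Lin28a*, an inhibitor of let-7, was at 400 to 1197 CPM in embryos and at 398 and 390 CPM in EBs (difference 0.93, adjusted p = 0.0617). The 2 embryo calls, named after their values were seen, were *Tbx3*, a factor with roles in limb and heart, at 22 to 46.9 CPM against 3.58 and 2.82 CPM (difference 3.30, SE 0.40, adjusted p = 0.000166), and *Klf4*, a factor of epithelia and vessels (difference 3.15, SE 1.07, adjusted p = 0.035). *Klf4* was lost without embryo 1 (adjusted p = 0.055) and without the EB of NT1 or NT2 (adjusted p = 0.15 and 0.18), and was under 8-fold without embryo 4 (difference 2.64) and with embryos 3, 5 and 6 alone (difference 1.37).

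Formative genes gave the lowest median of the lists. Of 22, 7 were called higher in EBs and none in embryos (edgeR, median -2.44), with 0 higher in embryos at an unadjusted p under 0.05. DESeq2 called 5 in EBs and 0 in embryos. For 20 of the 22 both EBs lay above every embryo (background 29.4%). *Lefty1* and *Nodal*, an inhibitor and its TGF-beta family target, were at 122 and 119 CPM against 0.122 to 3.34 CPM (difference -7.27, SE 0.95, adjusted p = 0.000259) and at 91.2 and 72.6 CPM against 0.101 to 7.18 CPM (difference -5.45, SE 1.15, adjusted p = 0.00386). *Pou3f1*, a factor of formative epiblast, was at 240 and 279 CPM against 6.77 to 21.6 CPM (difference -4.57, SE 0.37, adjusted p = 1.85e-05). *Zic2* differed by -3.22, or -2.82 with embryos 3, 5 and 6 alone, and the epithelial cadherin *Cdh1*, at 703 and 734 CPM against 75.2 to 118 CPM, by -2.91 (SE 0.19, adjusted p = 6.34e-06). Among embryos the highest *Nanog*, *Nodal*, *Lefty1* and *Pou3f1* were all in embryo 5, which had the least globin, and embryo 6, with the most, had the lowest *Pou5f1* and *Nanog*. What set embryos 5 and 6 apart was not tested.

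DNA methylation genes were a group in which a single enzyme was called. *Dnmt3b*, the de novo methyltransferase of epiblast, was at 2512 and 2597 CPM in EBs against 82.0 to 251 CPM (difference -4.28, SE 0.34, adjusted p = 1.84e-05). *Dnmt3a* differed by -2.24 (SE 0.21, adjusted p = 3.8e-05), and the maintenance enzyme *Dnmt1*, at 312 and 305 CPM against 109 to 327 CPM, by -0.81 (SE 0.37, adjusted p = 0.0965). Over the 15 genes the median was -0.34, and the 1 EB call stood beside a background of 4.37%. Without embryo 2 there were 2 calls in place of 1. The 34 genes of ZMYM proteins and their partners (CoREST, PRC1.6 and TRIM28) held no call in either direction by edgeR or DESeq2, and their median was -0.28. *Zmym2* itself was at 50.2 to 123 CPM (median 86.1) in embryos and at 89.8 and 90.2 CPM in EBs, a difference of -0.03 (SE 0.30, adjusted p = 0.943). *Trim28*, the corepressor of zinc finger proteins, was higher in EBs at 2090 and 2196 CPM against 475 to 1250 CPM (difference -1.48, SE 0.29, adjusted p = 0.0024), and so was *L3mbtl2* of PRC1.6, named after its values were seen (difference -1.52, SE 0.19, adjusted p = 0.000182). By adjusted p alone, 11 of the 34 were higher in EBs (background 22.5%) and 5 in embryos (background 23.8%), and at an unadjusted p under 0.05 these were 11 and 7.

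Germline genes are kept off in somatic cells by PRC1.6 and DNA methylation, and some are read at low levels in stem cells. Of 35 meiosis genes, 8 were called higher in EBs and 1 in embryos (median -1.22), and of 31 genes of the piRNA pathway and germ cell RNA, 6 and 1 (median -1.06). *Meioc*, which holds germ cells in meiotic prophase, was at 19 and 16 CPM in EBs against 0.0954 to 0.505 CPM (difference -6.07, SE 0.47, adjusted p = 1.56e-05). *Mael*, a piRNA factor on both lists, was at 7.31 and 5.75 CPM against 0.0954 to 0.227 CPM (difference -5.50, SE 0.33, adjusted p = 4.11e-06). *Sycp3*, of the chromosome axis in meiosis, was at 10.1 and 7.68 CPM against 0.191 to 1.54 CPM (difference -3.51, SE 0.56, adjusted p = 0.000787). *Rbmxl2*, a testis RNA-binding protein, was at 39.2 and 44.9 CPM against 0.198 to 1.13 CPM (difference -6.08, SE 0.58, adjusted p = 4.56e-05). All 4 were higher in both EBs than in any embryo. *Mael*, *Sycp3* and *Rbmxl2* are also ZMYM2 targets of the study, as are other list members such as *Ddx4*. The study chose its targets against wild-type embryos that include these 6, so their direction here is not independent evidence. The embryo calls were *Rec114*, of the break machinery (difference 3.54, adjusted p = 0.0149), and *Asz1*, with 1 count in EBs (ratio 85.9, interval 15.3 to 3402). *Rec114* was lost without the EB of NT2 (adjusted p = 0.082) and *Asz1* without either (adjusted p = 0.12 without NT1 and 0.17 without NT2). Of 12 primordial germ cell genes (median -1.03) *Tfap2c*, also a trophoblast factor, was called in embryos and highest in embryo 2 at 236 CPM, and its call was lost without either EB (adjusted p = 0.09 and 0.098). The 1 embryo call among these 12 stood beside a background of 5.32%, and without embryo 6, 1 of the 12 was called in EBs. With embryos 3, 5 and 6 alone, *Rec114* was under 8-fold (difference 2.84) and the 6 EB calls among piRNA genes became 10.

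ZMYM2 targets, the 165 genes that the study lists as raised in *Zmym2*-/- embryos, were also set side by side in the unedited samples. The study chose them against wild-type embryos that include these 6, so their direction here is not independent evidence. Of the 165, 42 were called higher in EBs (background 4.37%) and none in embryos (background 5.32%). By adjusted p alone these were 66 (background 22.5%) and 2 (background 23.8%). The other 38 that were not among the 127 tested are all in the embryo count table alone, so a target was tested only where the EB table held it, and the counts and medians below are a description of those 127. DESeq2 called 41 and 0, and at an unadjusted p under 0.05 72 and 4 were higher. Genes read from their annotated promoter had 29 of 83 calls (median -2.24), fusions with the L1MdT retrotransposon 8 of 29 (median -1.63), other transposon fusions 3 of 9 (median -0.64) and the rest 2 of 6 (median -1.50). Most were low in both groups: 69 had a mean under 1 CPM in each, and 11 reached 10 CPM in EBs. *Platr10* was at 158 and 173 CPM in EBs against at most 0.446 CPM (difference -10.29, SE 0.71, adjusted p = 8.08e-06), and *A230050P20Rik* at 27.0 and 31.9 CPM against 0.168 to 0.439 CPM (difference -6.62, SE 0.32, adjusted p = 1.79e-06). *Pla2g1b*, a secreted phospholipase, was at 6.78 and 5.70 CPM against 0.0239 to 0.101 CPM (difference -6.66, SE 0.37, adjusted p = 2.89e-06). *Malrd1* and *Epha6* had no count in the 6 embryos and were at least 26.2-fold and 21.2-fold lower there, from 21 and 17 counts in EBs. The 8 calls among L1MdT fusions became 5 without embryo 3 or the EB of NT1 and 2 without that of NT2, and 14 with embryos 3, 5 and 6 alone.

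**Figure D5:**
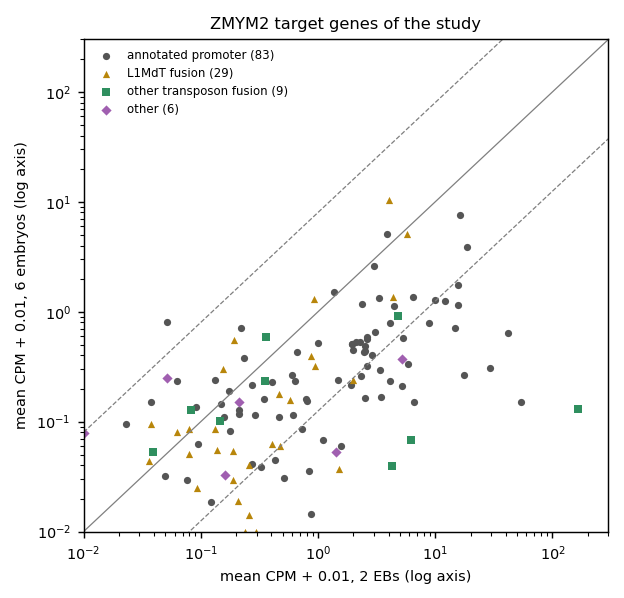
Mean level of the tested ZMYM2 targets in CPM plus 0.01, in the 2 EBs (x axis) and the 6 embryos (y axis), both log scales, with shape and colour by how the transcript starts. The solid line marks equal levels and the dashed lines 8-fold. Most points lie below the solid line and no called gene lies above it.

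E-box sequences (letters CACGTG, which read the same on both strands) are where the PRC1.6 subunits MGA and MAX bind, so the promoters of the targets were searched for them. RefSeq promoters (GRCm38.p6, 250 bases before to 50 after the start) were on hand for 21 of the 29 called targets that are read from their annotated promoter, and 7 of their 23 promoters held the letters (30.4%). They were in 7 of 39 promoters of such targets tested and not called (17.9%) and in 2349 of all 32851 (7.15%). Overlapping promoters of the called target *Tdrd1* hold the same site, so it was counted more than once. By gene the shares were 6 of 21 (28.6%), 6 of 36 (16.7%) and 8.09% of all genes. These shares are descriptions with no test, and a match is not shown to be bound. Of the germline genes above, *Mael*, *Rbmxl2* and *Sycp3* are shown because their promoters hold the letters, which stand in capitals. They lie at chr1:166238695-166238994 (minus strand), chr7:107209195-107209494 (plus strand) and chr10:88459337-88459636 (plus strand).
Mael: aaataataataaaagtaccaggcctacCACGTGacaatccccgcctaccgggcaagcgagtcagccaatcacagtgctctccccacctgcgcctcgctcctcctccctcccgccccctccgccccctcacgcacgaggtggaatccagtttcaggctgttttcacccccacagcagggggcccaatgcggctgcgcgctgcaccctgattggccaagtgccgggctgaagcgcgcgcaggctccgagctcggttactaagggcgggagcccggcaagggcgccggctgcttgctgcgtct
Rbmxl2: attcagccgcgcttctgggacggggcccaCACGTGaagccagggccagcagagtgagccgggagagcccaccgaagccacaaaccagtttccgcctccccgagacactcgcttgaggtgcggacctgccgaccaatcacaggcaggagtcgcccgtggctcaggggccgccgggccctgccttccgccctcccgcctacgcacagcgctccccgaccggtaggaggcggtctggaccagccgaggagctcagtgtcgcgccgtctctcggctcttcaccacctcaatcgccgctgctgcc
Sycp3: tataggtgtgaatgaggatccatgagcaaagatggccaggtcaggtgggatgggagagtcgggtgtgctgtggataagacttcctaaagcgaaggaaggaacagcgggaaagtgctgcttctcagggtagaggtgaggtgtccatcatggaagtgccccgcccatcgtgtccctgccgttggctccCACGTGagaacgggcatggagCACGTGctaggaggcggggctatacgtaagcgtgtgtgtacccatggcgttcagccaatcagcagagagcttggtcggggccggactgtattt

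Genes of cholesterol synthesis differed less. None of 18 was called by edgeR or DESeq2 (median -1.29). By adjusted p 16 were higher in EBs (background 22.5%), and 17 at an unadjusted p under 0.05. For 16 both EBs lay above every embryo (background 29.4%). *Sqle*, squalene epoxidase, was at 221 and 243 CPM against 46.1 to 77.5 CPM (difference -1.81, SE 0.19, adjusted p = 7.03e-05), and *Hmgcs1*, at the head of the pathway, differed by -1.53. Of 14 immediate early genes (median -0.64) *Egr1*, at 30.3 and 27.0 CPM against 1.18 to 3.35 CPM (difference -3.90, SE 0.36, adjusted p = 3.55e-05), and *Egr3* were called in EBs, the latter lost without the EB of NT1 (difference -2.96). Of 16 interferon response genes (median -0.25), *Irf1* (difference -4.11, SE 0.19, adjusted p = 1.64e-06) and *Tap1* were called in EBs and *Irf7* and *Oas1a* in embryos. *Irf7* and *Oas1a* were lost without either EB (adjusted p = 0.074 and 0.12 without NT1, and 0.056 and 0.091 without NT2).

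Pseudogenes made up 173 of the 796 calls for EBs (21.7%) and 13 of the 968 for embryos (1.34%). Of the 1506 pseudogenes tested, 11.5% were called in EBs (background 4.37%) and 0.863% in embryos (background 5.32%). Of the 173, 170 had counts in every library of the control mESCs, a share that was not taken for other genes. By symbol 26 are ribosomal protein pseudogenes, such as *Rpl15-ps2* at 39.9 and 33.5 CPM in EBs and at most 0.244 CPM in embryos. Such copies share reads with their parent genes, and the annotations of the tables differed, so these values are uncertain. The same holds for genes that overlap a model of only 1 table. Of 885 such genes tested, 64 were called for embryos (7.23%, background 5.32%) and 31 for EBs (3.50%, background 4.37%). *Raver1*, a splicing regulator named after its values were seen, was at 77.8 to 183 CPM in embryos and at 0.117 and 0.211 CPM in EBs, and belongs to them.

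Genes in only 1 count table were not tested, and their RPKM are set side by side. Of 4441 genes in the embryo table alone, 87 had a mean of at least 10 CPM of the library total, of which 80 were listed under 0.1 RPKM in the EBs and 7 were not in the RPKM table of the lines. The highest were the embryonic globins *Hba-x* (7.16 to 1662 CPM, 625 RPKM against 0.032 RPKM) and *Hbb-y* (0.474 to 903 CPM, 327 RPKM, listed at 0 in EBs), and *Apoc2*, an apolipoprotein, at 138 to 370 CPM and 244 RPKM, also listed at 0. *Tnnt2*, cardiac troponin T, was at 42.1 to 111 CPM. *Prl4a1*, *Prl2c3*, *Prl8a2* and *Cyp11a1*, of placenta and decidua, also ranked there, each lowest in embryo 6. The other 2 of the 10 were *Hbb-bs*, an adult-type beta globin at 21.5 to 251 CPM, and *Nupl1*, a nucleoporin at 85.4 to 125 CPM that is listed at 0 in EBs though every cell needs the pore. Of 1854 genes in the EB table alone, 38 reached 10 CPM, and 35 of these were not in the RPKM table of the embryos.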

How the data were processed

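RNA was sequenced from 6 single whole *Zmym2*+/+ embryos at E8.5 and from day 3 EBs of 2 control V6.5 clones. The authors used Trimmomatic (0.34) for trimming, STAR (2.7.8a) for alignment to mm10 and Picard (2.9.0) for duplicate marking, and counted genes with HTSeq-count, whose version, annotation and strand setting are not given in the sources used here. The deposited raw counts are whole reads per gene with no normalization. The normalized scores deposited beside them, each raw count over 1 factor per library, were not used. RPKM were made by the authors with StringTie (1.3.5), separately for embryos and lines. No gene had fewer than 13 counts over the 12 embryo libraries or 10 over the 4 EB libraries, so genes that were low in a group can be missing from its table.

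Raw counts were joined by Ensembl ID in R (4.3.3). Genes with at least 10 counts over the 8 libraries were tested with edgeR (4.0.16), using TMM scaling and a two-sided quasi-likelihood test (glmQLFit, glmQLFTest) with no covariate. The fit was also run on simulated counts in which few genes changed, so that run cannot judge the scaling between these groups. A call needed a Benjamini-Hochberg adjusted p under 0.05 and a fold of at least 8. That fold is above the 4-fold of the study because the groups came from separate batches and count tables. Lists were described by counts and medians with no test of their own. SE is the size of the log2 difference over the square root of F. Where a group had no counts, the fold is a bound against 3 counts over that group, and with 1 to 3 counts the ratio has a 95% exact counting interval, which covers counting error only. Marker sums and genes of 1 table are CPM of the library total. Named genes were *Zmym2*, the 10 largest calls in each direction whose groups did not overlap and with a mean of at least 10 CPM in the higher group, up to 8 called and 4 uncalled members of each list, all *Hox* and sex genes, and the 10 highest genes of each table alone that have a symbol and are under 0.1 RPKM in the other group. Columns of samples of another series numbered 0. Members and lists were chosen with earlier results of these data known. Alternatives were DESeq2 (1.42.0), glmTreat, other scalings, filters and folds, RPKM with 0.1 added, subsets of embryos, missing genes set to 0, control mESCs in the fit, a replicate block and leaving out each library.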

Additional observations from a re-analysis of the deposited data

Results flagged for a closer look

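For 174 values, the embryo farthest from the others was compared with the range of the 6, and 16 held an embryo whose gap to its neighbour passed Dixon's 95% limit. That limit is for normally spread values. These were CPM without a log, some from few counts, and all from the same 6 embryos. The 16 can therefore not be set against a rate by chance. In each of the 16 the outlying embryo was the highest. Embryo 5 stood out in the DNA methyltransferases, with *Dnmt1* at 327.3, *Dnmt3a* at 143.4 and *Dnmt3b* at 251.2 CPM, and in *Lefty1* at 3.34, *Pou3f1* at 21.61, *Sox21* at 36.36 and *Raver1* at 182.5 CPM. It also had the least globin RNA of the 6. Embryo 3 stood out in *Gdf3* at 0.3448, *Platr10* at 0.4462 and *Trim66* at 0.142 CPM, all of them far under the EBs. Embryo 2, with the most trophoblast RNA, stood out in *Asz1* at 5.49 CPM and in *Fthl17f* at 0.02745 CPM, which is a single count. Embryo 1 stood out in *Col1a1* at 268.7 and *Hoxc13* at 0.1263 CPM, and embryo 6 in *Olig2* at 1.969 CPM. *Xist* at 301.4 CPM in embryo 6, a female, lies in a group that mixes sexes. What set these embryos apart was not tested.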

How the results depend on the processing

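The 968 calls for embryos and 796 for EBs stayed within 1.5 times under DESeq2, other scalings and filters, embryo subsets, control mESCs in the fit, gene-type limits and the replicate block. They became 613 and 419 by RPKM with groups that do not overlap, 322 and 192 when the test itself asked for over 8-fold (glmTreat), 1692 and 1687 at 4-fold, 557 and 349 at 16-fold, and 2761 and 1758 with genes missing from a table set to 0. Leaving out 1 library gave 767 to 986 and 720 to 841, where a lone EB is assumed to vary like the embryos. Upper-quartile scaling moved the median of all genes by -0.102. Embryo and line numbers pair nothing in the design, deviations of same-numbered libraries correlated at 0.009 and 0.022, and the replicate block, with 1 residual degree of freedom, gave 1000 and 1112 calls. Among the named genes, 2 changed sign, neither of them called: *Myh6* to -0.74 under the block, and *Zmym2* to 0.24 in females, 0.18 in J-named embryos, 0.27 in embryos 3, 5 and 6 and 0.037 by RPKM, with -0.15 to 0.088 when 1 library was left out. The cause was not tested. Genes under about 0.1 CPM in a group rest on a few counts, and their differences are coarse.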

Other observations

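The Y-linked genes *Ddx3y*, *Eif2s3y* and *Uty* had no count in either EB. In the male embryos they were at 41.5 to 63.6, 18.1 to 46.8 and 17.5 to 21 CPM of the library total, and in females at 0 to 1.55, 0 to 0.629 and 0 to 0.42 CPM, the highest of each in embryo 4. The control mESCs of the same lines held 1 and 0 counts of *Ddx3y*, 5 and 0 of *Eif2s3y* and none of *Uty*. V6.5 is known as a male line, and *Xist* had 2 counts in the EBs. None of the 3 genes passed edgeR's test between embryos and EBs (adjusted p = 0.0615, 0.076 and 0.0757), with male and female embryos in 1 group, and all 3 passed, with *Xist* the 4 sex genes tested, when embryo 5 or embryo 6 was left out. All 4 were higher in embryos with no adjustment at the 0.05 threshold, and DESeq2 called all 4 at least 8-fold higher there.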
